A study of Mus musculus with 18 samples.

Results

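The thioredoxins and peroxiredoxins of the mouse retina were followed as 10 genes, chosen by symbol: the thioredoxins Txn1 and Txn2, their reductases Txnrd1 and Txnrd2, and the peroxiredoxins Prdx1 to Prdx6. All 10 were found among the 35006 gene names of the count files, and all 10 passed the filter on low counts that left 16183 genes for testing. The libraries were poly(A) RNA from retinas of male mice, 18 in all: 3 from WT mice (C57BL/6J, normoglycemic, on water), 6 from WT + NACET, 4 from Akita mice (C57BL/6-Ins2Akita/J, on water) and 5 from Akita + NACET. Akita mice carry a spontaneous mutation in the insulin gene Ins2 that is toxic to pancreatic β cells, so they are a model of type 1 diabetes, and males were used because the disease is milder in females. NACET is N-acetylcysteine ethyl ester, a cell-permeable form of an antioxidant thiol. Treated mice of both genotypes drank a solution of it (0.33 mg/mL, or about 50 mg/kg daily) between weeks 4 and 24 of life, when the retinas of all groups were taken. The labels number the libraries within each group but do not say that each came from a different mouse, so the p-values measure the spread between libraries.

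Peroxiredoxins are abundant enzymes that reduce hydrogen peroxide with a reactive cysteine, and most of them are then reset by a thioredoxin. The oxidized thioredoxin is in turn reduced by a thioredoxin reductase, a selenoprotein that draws its electrons from NADPH. The cytosol holds Txn1 and Txnrd1 and the mitochondria hold Txn2 and Txnrd2, while the peroxiredoxins are spread over the cytosol, the mitochondria and the endoplasmic reticulum. Photoreceptors have a high oxygen use and a dense supply of mitochondria, and several genes of the system are textbook targets of NRF2, the transcription factor that binds antioxidant response elements (ARE).

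Counts in genes ranged from 11495596 to 17814480 per library after ribosomal RNA genes were removed, and a gene of the 10 had between 119 and 5994 counts in a library. Levels are given as CPM, the read count scaled to the normalized library size, and a gene was called differentially expressed at an adjusted p of at most 0.05 in the quasi-likelihood test of edgeR over all genes. Rod markers summed to between 78200 and 189800 CPM and none of the 5 was at 0 in any group. Some libraries stood apart. The share of uniquely aligned reads outside annotated exons had a median of 17% in WT, 12.6% in WT + NACET, 11.5% in Akita and 15.7% in Akita + NACET, with the highest value, 19.8%, in Akita + NACET replicate 5. All 6 WT + NACET libraries differed from the other 12 in some genes outside the 10, such as Wdfy1 (88.97 to 103.1 CPM against 12.41 to 16.98) and Acp1 (2.049 to 3.144 CPM against 26.70 to 40.14). Lens fibre markers summed to 388.7 CPM in WT + NACET replicate 5 and 74.58 CPM in Akita replicate 2, against at most 21.31 CPM in any other library. Pigment epithelium markers had a median sum of 85.26 CPM in WT, 371.9 in WT + NACET, 45.98 in Akita and 269.8 in Akita + NACET. Their sums were 154.9 to 644.5 CPM in WT + NACET and 32.08 to 118.7 CPM in Akita. None of these 5 markers was called in any comparison, and their part in the results was not tested.

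Among the promoters of these genes, the sequences that bear on NRF2 are short matches to the ARE core, searched on both strands as TGACNNNGC or TGAGNNNGC in 300-base windows that lie mostly upstream of each RefSeq start (build GRCm38.p6). Promoters of 9 of the 10 genes could be matched by symbol, 11 windows in all since Txnrd1 has 3. Of 32851 mouse promoters of the same length, 27.8% hold a match of either form, 12.4% the form with C and 17.6% the form with G. Matches upstream of the start were found for Txn2, Txnrd1 and Prdx1, and are shown 5′ to 3′ on the strand of the gene, with the match in capitals. In each of them the core reads in the direction opposite to the gene.
Txn2: cttccttcccGCCCTCTCAcccatctcct
Txnrd1: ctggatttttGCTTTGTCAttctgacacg
Prdx1: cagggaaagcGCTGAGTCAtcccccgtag
The Txn2 window lies at chr15:77929163-77929191 on the minus strand, with its G-form match 187 to 179 bases before the start. The Txnrd1 window lies at chr10:82859104-82859132 on the plus strand, in the second of its 3 promoters, with a C-form match 92 to 84 bases before the start. The Prdx1 window, at chr4:116685456-116685484 on the plus strand, has a C-form match 133 to 125 bases before the start. The promoters of Txn1, Txnrd2 and Prdx2 to Prdx5 hold none of these letters in the window searched, and none of the 11 windows holds a site of NRF1, a regulator of respiratory genes, which 4.6% of all promoters hold. A match is a description of the letters and not evidence that a factor binds there.

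On the scale of CPM per kb of annotated exon, which allows levels to be compared between genes, the system was unevenly expressed in the retina. Prdx5, a peroxiredoxin of mitochondria, peroxisomes and cytosol, was highest, with 107 ± 12.5 CPM per kb (SD, n = 18 libraries), above 96.9% of the 16071 genes ranked. Prdx6 (73.1 ± 11.9), the 1-cysteine peroxiredoxin that relies on glutathione and not on thioredoxin, and the cytosolic Prdx2 (70.7 ± 11.3) followed, and did not differ from each other by more than their SD. Prdx3 (57.1 ± 9.8), the peroxiredoxin of the mitochondrial matrix, and Txn1 (56.7 ± 10) were also level with each other, and Txn2 (46.3 ± 4.37) and the cytosolic Prdx1 (33.9 ± 4.21) stood below them. The reductases were far lower than the proteins they reduce: Txnrd1 had 8.74 ± 0.815 and Txnrd2 3.63 ± 0.517 CPM per kb. Prdx4, the peroxiredoxin of the endoplasmic reticulum, had 7.63 ± 1.69 CPM per kb and did not differ from Txnrd1 by more than the SD. With the length of the longest transcript in place of all exons the 3 highest were Prdx2 (134), Prdx5 (126) and Prdx6 (112), and Prdx4 (15.7) came before Txnrd1 (9.67).

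**Figure D1:**
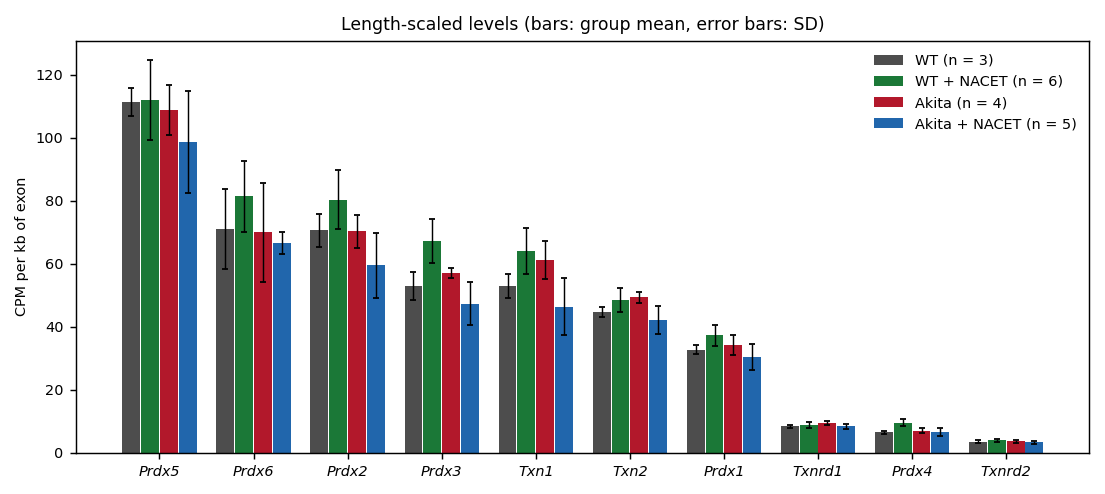
Level of each gene in CPM per kb of annotated exon, as the mean of each group (bars) with its SD (error bars), for WT (n = 3), WT + NACET (n = 6), Akita (n = 4) and Akita + NACET (n = 5). Prdx5 is highest in every group, and Txnrd1, Prdx4 and Txnrd2 lie far below the other 7 genes.

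The 4 groups were then compared to ask what diabetes and NACET did to these transcripts. Of the 4 group means, WT + NACET was the highest for 8 of the 10 genes, all except Txn2 and Txnrd1, and Akita + NACET was the lowest for 8, all except Txnrd1 and Prdx4. The share of all genes with either order was not counted. Many of the 10 genes moved together, and Akita + NACET replicate 5 was the lowest library for 7 of them, so these are not separate observations. Differences were modest in size, and those that passed the test lay between WT + NACET and Akita + NACET, between Akita + NACET and Akita, or in the interaction of genotype with NACET. The comparisons share libraries (Akita + NACET enters 4 of the 6 contrasts), so they are not independent of each other.

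In Akita vs WT, which compares the genotypes without NACET, none of the 10 genes was called by edgeR, against 7.64% of all genes tested. The share of reads outside exons was 14.9 to 17.1% in WT and 9.67 to 13.3% in Akita. Genotype and this share therefore cannot be told apart here. No gene of the 10 had an unadjusted p under 0.05, where 27.0% of all genes had, and DESeq2 called 0 as well. The largest difference was that of Txn1, with a log2 fold change of 0.21 (SE 0.142, 95% interval −0.09 to 0.50, adjusted p = 0.365, edgeR). The intervals of the 10 genes ran from −0.35 at their lowest bound, that of Prdx6, to 0.50 at their highest. Of the 10 changes 7 were positive, with a median of 0.09 against −0.01 over all genes. Txn2 alone had no overlap between the groups, with every Akita library above every WT library, a pattern that 11.2% of all genes show in this direction.

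In Akita + NACET vs Akita, which compares diabetic mice with and without NACET, all 10 log2 fold changes were negative, with a median of −0.17 against 0.00 over all genes. The share of reads outside exons was 14.3 to 19.8% in Akita + NACET and 9.67 to 13.3% in Akita, so treatment and this share cannot be told apart. Of the 10, Txn1 was called lower, where 5.14% of all genes were called lower and 9.65% in either direction. Txn2 and Prdx3 also had an unadjusted p under 0.05, as 29.0% of all genes had, but missed the threshold after adjustment (adjusted p = 0.081 and 0.0803, edgeR), although for both genes every Akita + NACET library lay below every Akita library, as 7.43% of all genes did. DESeq2 called Txn1 and Txn2, and 15.8% of the genes it tested.

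In WT + NACET vs WT, the effect of NACET in normoglycemic mice, all 10 log2 fold changes were positive, with a median of 0.19 against −0.01 over all genes. None of the 10 was called by edgeR, where 1.48% of all genes were called. Prdx3 and Prdx4 had an unadjusted p under 0.05, where 19.5% of all genes had, and both were called higher by DESeq2, which called 4.90% of the genes it tested. Prdx1, Prdx3 and Prdx4 had no overlap between the groups, with every WT + NACET library above every WT library, as 6.29% of all genes had. As all WT + NACET libraries also stood apart in Wdfy1 and Acp1, the effect of NACET in WT cannot be told apart from what else these libraries share.

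In Akita + NACET vs WT + NACET, which compares the genotypes in treated mice, 5 of the 10 genes were called lower (Txn1, Prdx1, Prdx2, Prdx3 and Prdx4), against 7.26% of all genes called lower and 13.3% in either direction. All 10 changes were negative, with a median of −0.30 and a lowest value of −0.53, and 7 of the 10 had an unadjusted p under 0.05, where 31.1% of all genes had. Txn1, Prdx3 and Prdx4 had no overlap between the groups, a pattern that 5.01% of all genes had in this direction. DESeq2 called these 5 genes and Txn2, and 17.6% of the genes it tested. The WT + NACET libraries enter here too, so genotype cannot be told apart from what else they share.

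In Akita + NACET vs WT, none of the 10 genes was called by edgeR, against 0.00618% of all genes, which is a single gene. None had an unadjusted p under 0.05, where 4.63% of all genes had, DESeq2 called 0, and no gene of the 10 had groups without overlap, where 4.17% of all genes had. The median change of the 10 was −0.10. The largest difference was that of Prdx2, with a log2 fold change of −0.25 (95% interval −0.51 to 0.01).

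The interaction of genotype with NACET asks whether NACET changed a transcript differently in Akita and in WT, and is the log2 fold change by NACET in Akita minus that in WT. It was negative for all 10 genes, with a median of −0.35 against 0.00 over all genes. Of the 10, 4 were called (Txn1, Txn2, Prdx3 and Prdx4), against 10.2% of all genes called in this direction and 20.3% in either direction. Prdx1 and Prdx2 had an unadjusted p under 0.05, as 35.6% of all genes had, and missed the threshold (adjusted p = 0.0704 and 0.0777, edgeR). The interaction also rests on the WT + NACET libraries that stood apart in Wdfy1 and Acp1.

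**Figure D2:**
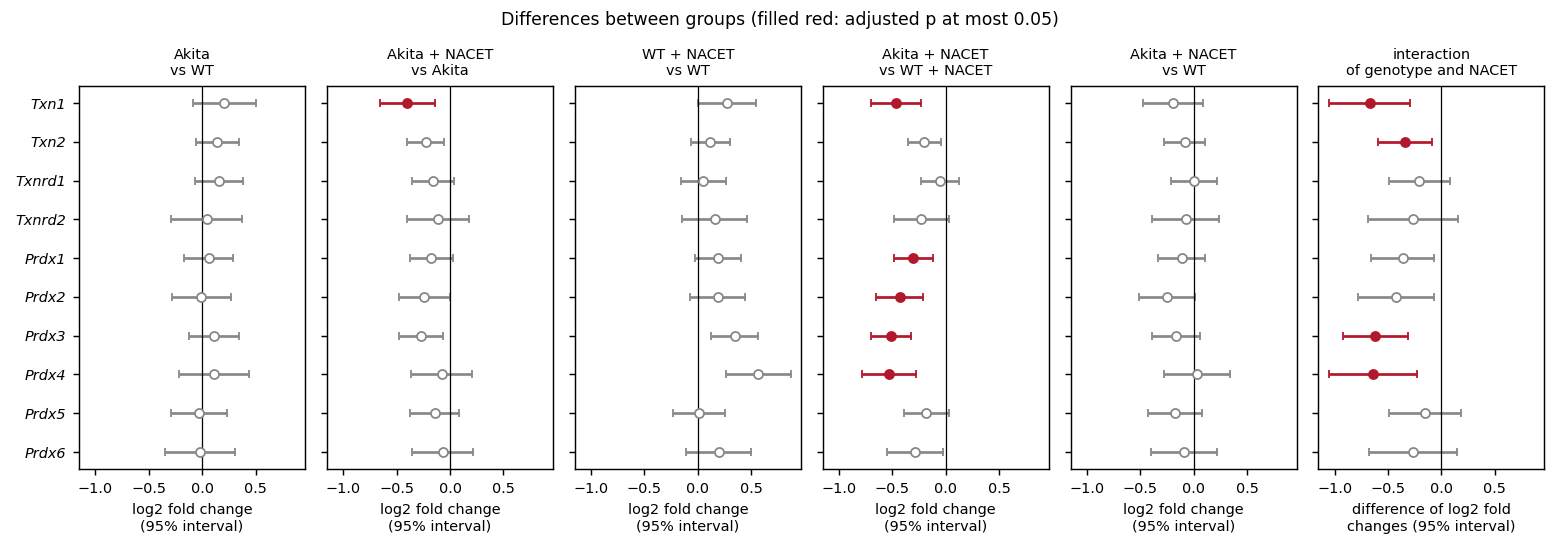
Log2 fold change of each gene in the 5 group comparisons and, in the last panel, the difference of log2 fold changes (interaction), from the edgeR fit of all 18 libraries, with 95% intervals as bars. Filled red points passed an adjusted p of 0.05: Txn1 in Akita + NACET vs Akita, 5 genes in Akita + NACET vs WT + NACET and 4 in the interaction.

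Txn1 (chr4:57956245-57969283 in mm9, minus strand), the cytosolic thioredoxin, which also reduces ribonucleotide reductase and transcription factors, was called in 3 of the 6 contrasts. It had 59.6, 51.6 and 56.0 CPM in the 3 WT libraries and 67.2, 66.5, 68.6 and 54.8 CPM in the 4 Akita libraries. In the 5 Akita + NACET libraries it had 56.5, 51.3, 58.1, 42.0 and 35.8 CPM, and in WT + NACET it ranged from 58.3 over a median of 68.3 to 77.2 CPM. Akita replicate 4 was low for its group and lay within the range of Akita + NACET, while the other 3 Akita libraries lay above it. WT + NACET lay above Akita + NACET with no overlap, by a margin of under 1 CPM between the nearest libraries. In order of the means, WT + NACET (67.4 ± 7.64 CPM, SD, n = 6) and Akita (64.3 ± 6.37, n = 4) differed by less than their SD, as did WT (55.7 ± 4.03, n = 3) and Akita + NACET (48.7 ± 9.58, n = 5).

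Txn1 fell by 24.2% in Akita + NACET vs Akita (log2 fold change −0.40, SE 0.124, adjusted p = 0.0463, edgeR) and by 27.6% in Akita + NACET vs WT + NACET (log2 fold change −0.47, SE 0.113, adjusted p = 0.0122). Its interaction was −0.67 (SE 0.181, adjusted p = 0.0156). The call against Akita was close to the threshold. It was lost when any 1 of the Akita libraries was left out (adjusted p from 0.0671 to 0.0966) and without Akita + NACET replicate 2 (0.0769), 4 (0.0969) or 5 (0.116), although the log2 fold change stayed between −0.31 and −0.47 in these fits. Of the fits that left out 1 library, the interaction was lost only in that without WT replicate 2 (adjusted p = 0.0519), and the difference from WT + NACET was called without any library of these 2 groups. Rod markers summed to 123500 to 189800 CPM in Akita, 106700 to 142700 in WT + NACET, 85100 to 116700 in WT and 78200 to 107300 in Akita + NACET. Within Akita they did not follow Txn1, as replicate 4 had the highest sum and the lowest Txn1. Within Akita + NACET both were highest in replicate 3 (107300 and 58.07 CPM) and lowest in replicate 5 (78200 and 35.79 CPM). Within WT + NACET both were highest in replicate 3 (142700 and 77.24 CPM), but rods were lowest in replicate 4 and Txn1 in replicate 2. Within WT the highest rod sum was in replicate 3 and the highest Txn1 in replicate 1. Of the 5 rod markers, 4 were called lower in Akita + NACET vs Akita, 2 in Akita + NACET vs WT + NACET and 5 in the interaction. For the 5 cone markers these counts were 2, 3 and 2. In bulk tissue, fewer cells of a type and less RNA per cell cannot be told apart, and the part of rods and cones in these results was not tested.

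Txn2 (chr15:77745477-77759436, minus strand), the mitochondrial thioredoxin, had a smaller SD relative to its level than Txn1 in each group. It had 181, 189 and 195 CPM in WT, 202, 204, 208 and 218 CPM in Akita, and 192, 177, 189, 184 and 147 CPM in Akita + NACET. In WT + NACET it ranged from 185 over a median of 207 to 225 CPM. The Akita libraries lay above those of WT and of Akita + NACET, without overlap in either case, and Akita + NACET replicate 5 was the lowest of all 18. None of the neighbouring means in the order Akita, WT + NACET, WT, Akita + NACET differed by more than the larger SD.

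The interaction of Txn2 was −0.34 (SE 0.121, adjusted p = 0.0498, edgeR), at the edge of the threshold. In the single comparisons it was not called: the log2 fold change was −0.23 (SE 0.083, adjusted p = 0.081) in Akita + NACET vs Akita and −0.20 (SE 0.0753, adjusted p = 0.0788) in Akita + NACET vs WT + NACET. The interaction was called in only 4 of the 18 fits that left out 1 library, and its adjusted p reached 0.122 without WT replicate 1. It was also lost with upper quartile normalization (0.0554), no filter (0.104), a filter at a mean count of 50 (0.0506), both outlying libraries (Akita replicate 4 and Akita + NACET replicate 5) left out (0.0922), or the non-exonic read share as a covariate, where it was 0.013 (0.990).

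**Figure D3:**
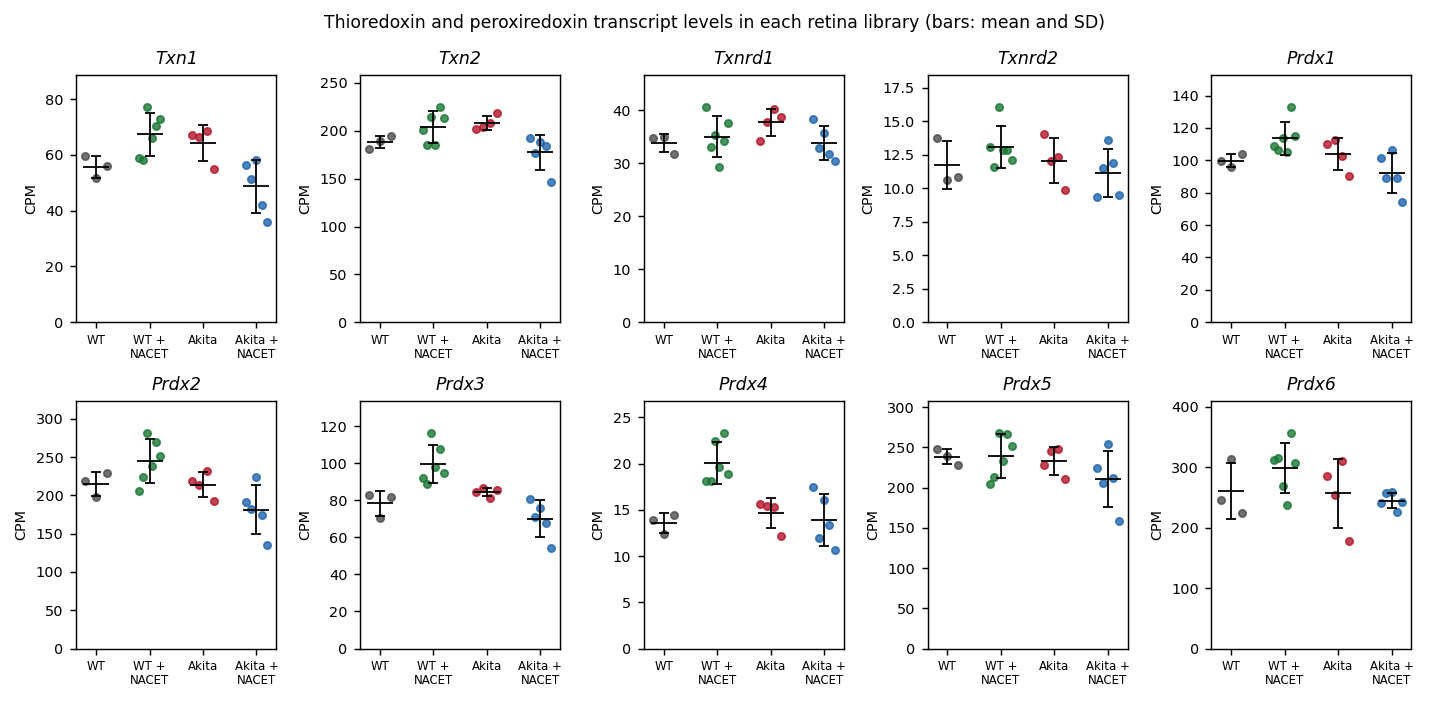
CPM of each of the 10 genes in each of the 18 libraries (points), with the mean and SD of each group (bars), on linear axes that start at 0. Prdx3 and Prdx4 lie higher in the 6 WT + NACET libraries than in the other 12, and for every gene except Txnrd1 and Prdx6 the lowest point is in Akita + NACET.

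Neither thioredoxin reductase was called in any of the 6 contrasts. Txnrd1 (chr10:82296696-82360469, plus strand), the cytosolic enzyme, had 34.8, 34.9 and 31.9 CPM in WT, 34.2, 37.8, 40.3 and 38.8 CPM in Akita, and 38.5, 33.0, 35.7, 31.7 and 30.5 CPM in Akita + NACET. All 4 groups overlapped, and its log2 fold changes lay between −0.16 (95% interval −0.35 to 0.04, Akita + NACET vs Akita) and 0.16 (−0.07 to 0.38, Akita vs WT), with an interaction of −0.21 (−0.49 to 0.08). In WT + NACET vs WT the change of Txnrd1 was 0.05 (−0.16 to 0.26, adjusted p = 0.814, edgeR). Txnrd2 (chr16:18426510-18479166, plus strand), the mitochondrial enzyme, was the least abundant of the 10, with 10.6 to 13.8 CPM in WT, 9.86 to 14.0 in Akita and 9.37 to 13.6 in Akita + NACET. In WT + NACET it ranged from 11.6 over a median of 12.9 to 16.1 CPM. Its groups overlapped too, and its largest change in a group comparison was −0.23 (−0.49 to 0.03, adjusted p = 0.219) in Akita + NACET vs WT + NACET.

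The cytosolic peroxiredoxins Prdx1 and Prdx2 were lower in Akita + NACET than in WT + NACET. Prdx1 (chr4:116358149-116373427, plus strand), which also acts in peroxide signalling, had 99.5, 95.6 and 104 CPM in WT, 110, 113, 103 and 90.4 CPM in Akita, and 102, 89.1, 107, 89.4 and 74.3 CPM in Akita + NACET. In WT + NACET it ranged from 105 over a median of 111 to 133 CPM, above every WT library. The highest Akita + NACET library, replicate 3, lay within the range of WT + NACET, and the other 4 lay below it. Prdx2 (chr8:87493486-87498733, plus strand), which is known for its abundance in red cells and neurons, had 219, 198 and 229 CPM in WT, 219, 213, 232 and 193 CPM in Akita, and 192, 182, 224, 174 and 136 CPM in Akita + NACET. In WT + NACET it ranged from 205 over a median of 245 to 281 CPM, and overlapped with Akita + NACET only through replicate 3 of the latter.

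Between Akita + NACET and WT + NACET, Prdx1 fell by 18.9% (log2 fold change −0.30, SE 0.0874, adjusted p = 0.0282, edgeR) and Prdx2 by 25.9% (−0.43, SE 0.105, adjusted p = 0.0127). The call of Prdx1 was lost without Akita + NACET replicate 2 (adjusted p = 0.0637), 4 (0.0638) or 5 (0.0907) and without WT + NACET replicate 3 (0.0561) or 5 (0.076), while Prdx2 was called without any library of these groups. Neither gene was called against Akita, where the log2 fold changes were −0.17 (95% interval −0.38 to 0.03) and −0.24 (−0.48 to 0.00). Of other cells' markers, 2 of 5 for rods, 3 of 5 for cones, 1 of 5 for Mueller glia and 4 of 5 for microglia were called lower in the same contrast. Cone markers summed to 1778 to 2231 CPM in Akita + NACET and 2265 to 3593 CPM in WT + NACET, with none at 0, and Mueller glia markers to 2196 to 2321 CPM and 2603 to 3282 CPM. The part of these cells in the results was not tested. Red cell markers went the other way. Their sum was 35.7 to 97.2 CPM in Akita + NACET against 20.01 to 56.36 CPM in WT + NACET, with 3 of 5 called higher and none at 0, so that Prdx2 was lower where red cell transcripts were higher. Prdx2 shares exon bases with Rnaseh2a on the other strand, and reads were counted without regard to strand. Of its 31-base stretches 14.0% occur more than once in the mm9 genome, as do 16.2% of those of Prdx1 and 11.4% of those of Txn1, so that reads from such stretches aligned to several places were not counted.

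Prdx3 (chr19:60939954-60950459, minus strand), the peroxiredoxin of the mitochondrial matrix that works with Txn2 and Txnrd2, had the smallest p of the 10 genes. It had 82.7, 70.5 and 81.5 CPM in WT, 84.4, 86.5, 81.4 and 85.5 CPM in Akita, and 80.5, 71.2, 76.1, 67.9 and 54.4 CPM in Akita + NACET. The 6 WT + NACET libraries had 92.3, 88.8, 116, 98.0, 108 and 94.7 CPM. Every WT + NACET library lay above all 12 others, as for Wdfy1, and every Akita + NACET library lay below every Akita library. How many of all genes had WT + NACET above all 12 others was not counted. The mean of WT + NACET (99.6 ± 10.3 CPM, SD, n = 6) exceeded that of Akita (84.5 ± 2.23, n = 4) by more than the larger SD, whereas Akita, WT (78.3 ± 6.73, n = 3) and Akita + NACET (70.0 ± 9.95, n = 5) did not differ from their neighbour by that much.

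Prdx3 fell by 29.7% in Akita + NACET vs WT + NACET (log2 fold change −0.51, SE 0.0899, adjusted p = 0.00196, edgeR), and its interaction was −0.62 (SE 0.145, adjusted p = 0.00812). Both were called in every fit that left out 1 library. The log2 fold change in WT + NACET vs WT, 0.35 (95% interval 0.13 to 0.57), and that in Akita + NACET vs Akita, −0.27 (−0.48 to −0.07), missed the threshold with adjusted p = 0.0909 and 0.0803. Without Akita + NACET replicate 1 the latter was called (adjusted p = 0.047, edgeR), the only 1 of 19 alternative fits to do so. With both outlying libraries left out it was −0.19 (0.304). No 31-base stretch of the Prdx3 transcript occurs more than once in the genome, and no gene shares its exons.

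Prdx4 (chrX:151758461-151775297, minus strand), the secretory peroxiredoxin of the endoplasmic reticulum, which couples peroxide removal to the oxidation of newly made proteins, had the largest log2 fold change of the 10 in a group comparison, although its differences in CPM were small. Its level was 13.9, 12.4 and 14.5 CPM in WT, 15.6, 15.5, 15.3 and 12.2 CPM in Akita, and 17.5, 11.9, 16.0, 13.4 and 10.7 CPM in Akita + NACET. The 6 WT + NACET libraries had 18.1, 18.1, 22.5, 19.6, 23.3 and 18.9 CPM. As with Prdx3, every WT + NACET library lay above the other 12, and the WT, Akita and Akita + NACET libraries overlapped. The mean of WT + NACET, 20.1 ± 2.26 CPM (SD, n = 6), was 5.43 CPM above that of Akita, the next in order, and the other 3 means lay within 1 SD of each other.

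The fold of Prdx4 in WT + NACET vs WT was 1.48 (log2 fold change 0.56, SE 0.146), with an adjusted p of 0.0552 in edgeR and 0.00951 in DESeq2. It also passed in edgeR with upper quartile normalization (0.0479), with a filter at a mean count of 50 (0.0486), with only the WT and WT + NACET libraries in the fit (0.0385) and without WT + NACET replicate 2 (0.0484). Of the 19 alternative fits 13 did not call it, and only 1 of the 9 that left out 1 library did. In these 19 fits its log2 fold change ran from 0.395 to 0.641, and its adjusted p was as high as 0.369. Prdx4 fell by 30.8% in Akita + NACET vs WT + NACET (log2 fold change −0.53, SE 0.123, adjusted p = 0.00935, edgeR), a call that held without any library of these groups. Its interaction of −0.64 (SE 0.198, adjusted p = 0.0289) was lost without WT replicate 1 (0.0611) or 2 (0.0828), Akita replicate 1 (0.0525) or Akita + NACET replicate 2 (0.0523). Between Akita + NACET and Akita its change was −0.08 (95% interval −0.36 to 0.20). WT + NACET replicate 5, the library with the lens fibre markers, had the highest Prdx4 level, and without it the log2 fold change over WT was 0.52 (adjusted p = 0.0942). Markers of several cell types were also lower in Akita + NACET than in WT + NACET. Microglia markers summed to 24.8 to 41.2 CPM against 40.5 to 66.4 CPM, with overlap, 4 of 5 called lower and none at 0. Cone markers (1778 to 2231 against 2265 to 3593 CPM) had no overlap and 3 of 5 called lower. Mueller glia markers (2196 to 2321 against 2603 to 3282 CPM) had no overlap and 1 of 5 called lower. For rods 2 of 5 were called lower, whereas for red cells 3 of 5 were called higher. The part of these cells in the result was not tested.

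Prdx5 and Prdx6, the most abundant per kb, were not called in any contrast. Prdx5 (chr19:6981187-6984596, minus strand) had 247, 239 and 229 CPM in WT, 228, 246, 247 and 211 CPM in Akita, and 224, 206, 255, 212 and 159 CPM in Akita + NACET, and in WT + NACET it ranged from 204 over a median of 243 to 268 CPM. The 4 groups overlapped, with Akita + NACET replicate 5 the lowest library by far. The log2 fold changes of Prdx5 ran from −0.18 (95% interval −0.39 to 0.03, Akita + NACET vs WT + NACET) to 0.01 (−0.24 to 0.25, WT + NACET vs WT). Prdx6 (chr1:163170243-163181350, minus strand) had 246, 313 and 224 CPM in WT, 286, 254, 310 and 178 CPM in Akita, and 240, 257, 258, 226 and 242 CPM in Akita + NACET. In WT + NACET it ranged from 237 over a median of 309 to 356 CPM. Its Akita libraries spread most (coefficient of variation 22.2%) and its Akita + NACET libraries least (5.35%). The lowest change of Prdx6 was −0.29 (−0.55 to −0.03) in Akita + NACET vs WT + NACET, with an adjusted p of 0.12 in edgeR. Prdx5 shares exon bases with Trmt112 on the other strand.

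Several of these genes moved together from library to library, and a single library set many of the extremes. The median of the 10 genes relative to the mean of WT was −0.39 on the log2 scale in Akita + NACET replicate 5, with all 10 below the WT mean, and this library had the lowest level of all 18 for 7 of the 10. It was 0.33 in WT + NACET replicate 5 and 0.29 in replicate 3, with all 10 above the WT mean in both, and these 2 libraries had the highest level for 4 and 5 of the 10 genes. Akita replicate 4 was the only Akita library with a negative median (−0.15). The share of reads outside exons was 19.8% in Akita + NACET replicate 5, 11.3% in WT + NACET replicate 5 and 10.4% in WT + NACET replicate 3, high where the genes were low. Akita replicate 4 did not follow this, with a low share of 10.2% beside its negative median. With this share as a covariate in the edgeR fit, 0 of the 10 genes were called in each of the 6 contrasts. The covariate is not independent of the groups, and of all genes it left 194 called in Akita + NACET vs WT + NACET in place of 2148, and 17 in the interaction in place of 3289. For Prdx3 the log2 fold change in Akita + NACET vs WT + NACET was then −0.35 (adjusted p = 0.0638) and for Prdx4 −0.37 (0.194), and for Txn1 it was −0.26 (0.282). The interactions were then −0.20 for Txn1 (adjusted p = 0.810, edgeR), −0.26 for Prdx3 (0.678) and −0.26 for Prdx4 (0.788), and Txn1 in Akita + NACET vs Akita was −0.14 (0.784). Where the groups and this share moved together, their parts in these results cannot be told apart.

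**Figure D4:**
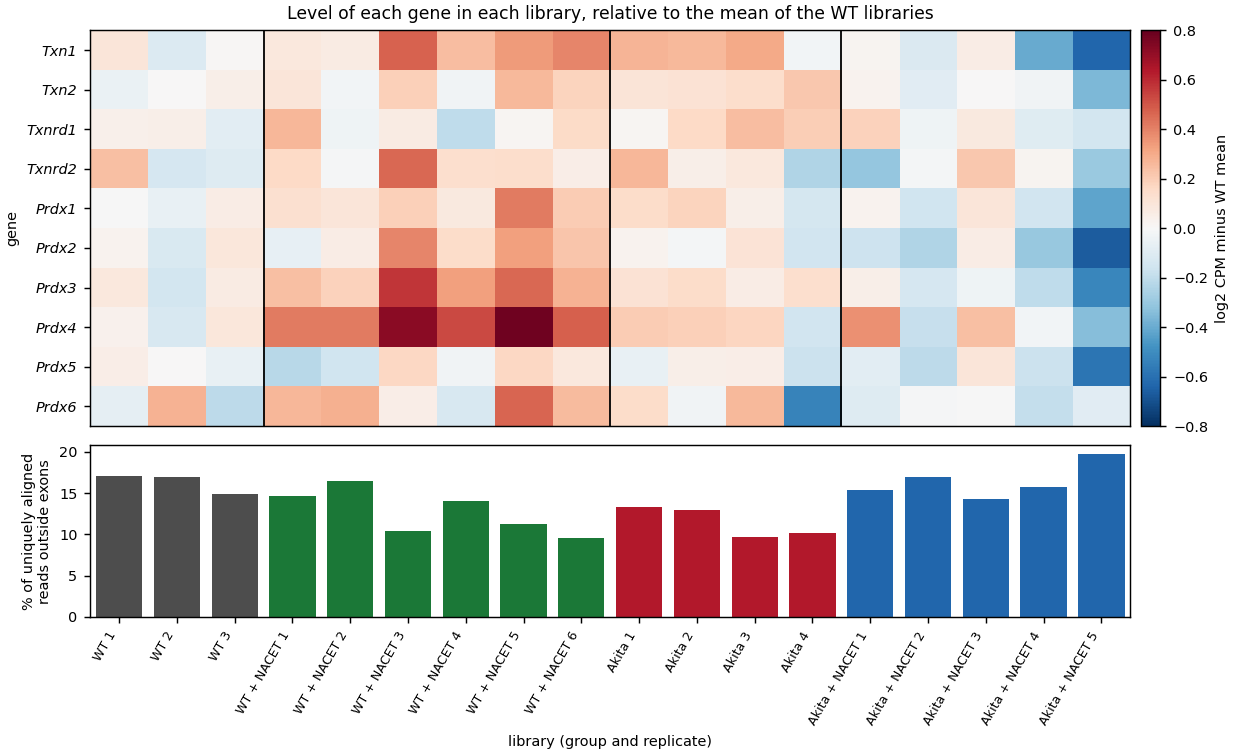
Log2 CPM of each gene minus the mean of the 3 WT libraries (upper panel, colour scale, 18 libraries ordered by group), with the percent of uniquely aligned reads outside exons in the same libraries (lower panel). Akita + NACET replicate 5 is blue for all 10 genes and has the highest share, 19.8%, and WT + NACET replicates 3 and 5 are red for all 10 with shares of 10.4% and 11.3%.

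With Akita replicate 4 and Akita + NACET replicate 5 both left out, a check chosen after the data were seen, 4 of the 10 genes were called in the interaction (Txn1, Prdx1, Prdx3 and Prdx4), 4 between the treated groups (Txn1, Prdx2, Prdx3 and Prdx4, all lower in Akita + NACET), 2 by NACET in WT (Prdx3 and Prdx4, both higher) and 0 in each of the other 3 contrasts. Of the 16124 genes tested in this fit, 2300 were called in the interaction and 1323 between the treated groups. For Akita + NACET vs Akita the whole table then had 1 called gene in place of 1562, and in WT + NACET vs WT it had 788 in place of 240.

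Within groups, after subtraction of each group's mean, the levels of Prdx2 followed those of Prdx5 (Pearson's r = 0.934 over 18 libraries) and of Txn1 (r = 0.915), and those of Prdx1 followed Prdx4 (r = 0.885). Correlations of the reductases and Prdx6 were lower. With the other 9 genes, r ran from −0.18 (Prdx3) to 0.394 (Prdx1) for Prdx6, from −0.024 (Txnrd2) to 0.538 (Txn2) for Txnrd1, and from −0.024 (Txnrd1) to 0.583 (Prdx2) for Txnrd2. The points share their library, its depth and its share of reads outside exons, so these values are descriptions. Over the 18 libraries the genes most like Prdx3 in log2 CPM were 1110058L19Rik (r = 0.977) and Ssu72 (r = 0.962), those most like Prdx4 were Ccdc53 (r = 0.945) and Hmgb3 (r = 0.923), and those most like Txn1 were Ap2s1 (r = 0.959) and Mrpl11 (r = 0.955).

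The wider thioredoxin pathway was followed in a list of 39 further genes (inhibitors and partners, peroxiredoxin repair, thioredoxin-like proteins, glutaredoxins, thioredoxin substrates and enzymes that supply NADPH), of which 37 were tested. Akita vs WT gave 7 of the 37 called higher and 0 lower, where 3.96% of all genes were called higher. NACET in Akita gave 0 called higher and 9 lower, where 5.14% of all genes were called lower. NACET in WT gave 2 called higher and 0 lower, where 0.859% of all genes were called higher. The treated groups (Akita + NACET vs WT + NACET) gave 0 called higher and 7 lower, where 7.26% of all genes were called lower. The interaction gave 0 positive and 10 negative, where 10.2% of all genes were called negative. For Akita + NACET vs WT edgeR called 0 and 2 had an unadjusted p under 0.05. The medians of the 37 log2 fold changes were 0.10, −0.15, 0.12, −0.10, −0.27 and −0.02 in these contrasts, in the order given.

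Nxnl1, which encodes rod-derived cone viability factor, a thioredoxin-like protein made by photoreceptors, had 281 to 335 CPM in WT, 352 to 542 in Akita and 233 to 297 in Akita + NACET, and ranged from 409 over a median of 419 to 514 CPM in WT + NACET. WT lay below Akita and WT + NACET without overlap, and Akita + NACET lay below both as well. Its log2 fold change was 0.45 in Akita vs WT (adjusted p = 0.0469, edgeR), −0.60 by NACET in Akita (0.0161) and 0.55 by NACET in WT (0.0326). It was −0.70 in Akita + NACET vs WT + NACET (0.000571) and −1.15 in the interaction (0.000846). With 1 library left out, the last 2 were called in every fit, the call in Akita vs WT in 2 of 7 fits, that by NACET in WT in 6 of 9, and that by NACET in Akita in all except the fit without Akita replicate 4 (0.0567). With the non-exonic read share as a covariate it was called between the treated groups only.

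The other genes with the smallest p of the list in Akita vs WT were Sesn1, a sestrin linked to peroxiredoxin repair (0.58, SE 0.101, adjusted p = 0.0117), Idh1, a cytosolic source of NADPH (0.47, SE 0.0928, adjusted p = 0.0155), and Nxnl2, the paralog of Nxnl1 (0.62, SE 0.165, adjusted p = 0.0317). No gene of the whole table was called in this contrast without WT replicate 1 or without WT replicate 2, so these calls rest on those libraries. Between Akita + NACET and Akita, Idh1 fell by 21.4% (adjusted p = 0.0206) and Nxnl2 by 35.7% (0.0204). Both calls were lost without Akita replicate 4 (adjusted p = 0.0683 for either gene, edgeR) or Akita + NACET replicate 5 (0.0571 for either), and with the non-exonic read share as a covariate (0.631 and 0.634). In WT + NACET vs WT, Rrm2b, a subunit of ribonucleotide reductase, rose 1.3-fold (adjusted p = 0.0282), and was called in 4 of the 9 fits that left out 1 library. Txndc12, a thioredoxin-like protein of the endoplasmic reticulum, fell by 26.6% in Akita + NACET vs WT + NACET (adjusted p = 0.00386), and the glutaredoxin Glrx2 had an interaction of −0.63 (0.00268) and Idh1 of −0.59 (0.00363). With the covariate neither interaction was called (−0.386 for Glrx2, adjusted p = 0.456, and −0.307 for Idh1, 0.547, edgeR).

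Txnip, the inhibitor that binds thioredoxin and is known to rise with glucose, was not called in any contrast. It was low, with 1.93 to 5.12 CPM in WT, 1.52 to 4.10 in WT + NACET, 1.99 to 5.84 in Akita and 1.86 to 3.98 in Akita + NACET. In Akita vs WT its log2 fold change was 0.20, with a 95% interval of −0.61 to 1.01 that is too wide to show a change of this size. Srxn1, sulfiredoxin, which repairs overoxidized peroxiredoxins and is a classic NRF2 target, was not called either, with 39.3 to 48.7 CPM in WT and 40.6 to 46.4 CPM in WT + NACET. Its change in WT + NACET vs WT was −0.01 (95% interval −0.20 to 0.18) and in Akita + NACET vs Akita 0.13 (−0.05 to 0.31).

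Nnt, the transhydrogenase that makes mitochondrial NADPH for Txnrd2 and is disrupted in the C57BL/6J strain, had its highest levels in WT + NACET. It had 13.1, 14.8 and 8.61 CPM in WT, 10.2, 8.92, 13.6 and 7.05 CPM in Akita and 9.23, 11.6, 10.9, 10.7 and 9.93 CPM in Akita + NACET, and ranged from 16.3 over a median of 19.9 to 23.8 CPM in WT + NACET. As for Prdx3, Prdx4 and Wdfy1, every WT + NACET library lay above the other 12, a pattern that was not counted over all genes. Nnt fell by 46.9% in Akita + NACET vs WT + NACET (log2 fold change −0.91, SE 0.153, adjusted p = 0.00121, edgeR), and its log2 fold change in WT + NACET vs WT was 0.70 (SE 0.181, adjusted p = 0.0552).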

How the data were processed

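Retinal poly(A) RNA of 18 libraries was analysed, in groups taken from the sample titles. Per the labels and the study's methods, the authors prepared the libraries with the TruSeq RNA v2 kit, aligned single-end reads to mm9 with TopHat2 2.1.0 and counted them over exons with HTSeq 0.11.2 without regard to strand. The deposited values are raw read counts per gene, not normalized, in 1 file per library, and reads aligned to several places are not among them, which lowers the counts of genes with near-identical copies. The study compared groups with DESeq2 after removing rRNA genes.

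Here 185 rRNA genes (0.977% of counts on average) and 1 entry without a name (0.00544%) were left out. Genes were tested with edgeR 4.0.16 in R 4.3.3 (quasi-likelihood F test, TMM normalization, minimum count 10 and total 15, robust dispersion, all 4 groups in 1 fit, 6 contrasts), with Benjamini-Hochberg adjustment over 16183 genes and no minimum fold change. SEs were derived from the F statistic, and log2 fold changes have 95% intervals. The common dispersion of 0.0347 corresponds to a biological coefficient of variation of 0.186. Genes were placed on mm9 with the GENCODE annotation of that build, and promoters come from RefSeq on GRCm38.p6. The test was tried on simulated data first. The 10 genes, the pathway list and the marker lists were chosen with earlier results of these data known. Named from the pathway list were the 3 called genes with the smallest p in each contrast, with Txnip, Srxn1 and Nnt in any case. Alternatives were DESeq2 1.42.0, other normalizations and filters, only 2 groups in the fit, the replicate number as a block, rRNA genes kept, a covariate for reads outside exons, and each library left out in turn. The chi-square per gene between replicate libraries lay between 4.82 and 55.0 over 34 pairs, far above sampling noise, so each library was counted once.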

Additional observations from a re-analysis of the deposited data

Results flagged for a closer look

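In 4 of the 30 groups of 4 to 6 libraries that were examined, over the 10 genes, 1 library lay far from the rest of its group. About 1 group in 20 would do so by chance. Txn1 had 54.79 CPM in Akita replicate 4, against 66.48 CPM in the nearest Akita library. Prdx4 had 12.18 CPM in the same library, against 15.26 CPM in the nearest. Prdx1 had 133 CPM in WT + NACET replicate 5, against 114.7 CPM in the nearest WT + NACET library, and Txnrd2 had 16.09 CPM in WT + NACET replicate 3, against 13.07 CPM. Akita replicate 4 also had the highest sum of rod markers, 189800 CPM, and the lowest sum of Mueller glia markers, 1268 CPM, of the 18 libraries, and the part of either in its low Txn1 and Prdx4 levels was not tested.

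The interaction of genotype with NACET was called in edgeR for 4 of the 10 genes, against 10.2% of all genes called negative. The difference of log2 fold changes was −0.67 for Txn1, −0.34 for Txn2, −0.62 for Prdx3 and −0.64 for Prdx4. All 4 genes had a negative change in Akita and a positive one in WT. The WT + NACET libraries in this term stood apart from the other 12 in Wdfy1 and Acp1. Of the 18 fits that left out 1 library, the call held in 17 for Txn1, 18 for Prdx3, 14 for Prdx4 and only 4 for Txn2. With the non-exonic read share as a covariate none of these genes was called. The value was then −0.20 for Txn1 (adjusted p = 0.810, edgeR), 0.013 for Txn2 (0.990), −0.26 for Prdx3 (0.678) and −0.26 for Prdx4 (0.788).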

How the results depend on the processing

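The counts of the 10 genes called in each contrast were recomputed under 10 other settings and with each library left out in turn. In Akita vs WT and in Akita + NACET vs WT the count was 0 in every fit. For Akita + NACET vs Akita, where 1 gene was called, 0 were called with upper quartile normalization, no filter, a mean count of at least 50, edgeR with only the 2 groups, the replicate block, the share outside exons as covariate, or with both outlying libraries left out, and 2 with DESeq2. Leaving out 1 library gave 0 to 2. In WT + NACET vs WT, where 0 were called, 1 was called with upper quartile normalization, a mean count of at least 50 or edgeR with only the 2 groups, 2 with DESeq2 and 2 with both outlying libraries left out, and leaving out 1 library gave 0 to 1. The 5 calls in Akita + NACET vs WT + NACET became 0 with the covariate and 4 or 5 with 1 library left out. In the interaction the 4 calls became 0 with the covariate, 1 without WT replicate 2, 2 without WT replicate 1, Akita replicate 1 or Akita + NACET replicate 2, and 6 without Akita + NACET replicate 3. The cause of these changes was not tested. Over all genes the 1237 calls of Akita vs WT became 2078 with DESeq2, 148 with only the 2 groups, 507 with the replicate block, 619 without both outlying libraries, 234 without Akita replicate 4 and 0 with the covariate, without WT replicate 1 or without WT replicate 2. The 1562 of Akita + NACET vs Akita became 2392 with DESeq2, 1010 with no filter, 700 with only the 2 groups, 219 with the replicate block, 0 with the covariate, 1 without Akita replicate 4 (808 and 993 without 1 and 3) and 101 without Akita + NACET replicate 5 (425 and 872 without 2 and 4). The 240 of WT + NACET vs WT became 717 with DESeq2, 61 with the covariate, 788 without both outlying libraries, 72 or 77 without WT replicate 1 or 2, and 110 or 153 without WT + NACET replicate 3 or 5. The 2148 of Akita + NACET vs WT + NACET became 1363 with the block, 194 with the covariate, 1323 without both outlying libraries, 1369, 1342 or 860 without Akita + NACET replicate 2, 4 or 5, and 1124 or 1265 without WT + NACET replicate 3 or 5. The single call of Akita + NACET vs WT became 10 with DESeq2, and the 3289 of the interaction became 17 with the covariate and 1699 or 1730 without WT replicate 1 or 2. The replicate numbers did not pair the libraries (correlation of deviations −0.332 to 0.345 over 22 pairs with the same number, 4 over 0.1). With the replicate number as a block 4 genes were called in Akita + NACET vs WT + NACET and 3 in the interaction, with Prdx1 lost in the former (adjusted p = 0.0624, edgeR) and Txn2 in the latter (0.103).

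Of 1210 recomputed log2 fold changes, 1089 kept their direction and side of the threshold and 51 changed sign. Of these 51 values 1 had been called, the interaction of Txn2, which was 0.013 with the covariate. With the covariate the log2 fold changes in Akita vs WT were −0.061 for Txn1, −0.061 for Txn2, −0.056 for Txnrd2, −0.085 for Prdx1, −0.097 for Prdx3, −0.11 for Prdx4 and 0.011 for Prdx6. For Akita + NACET vs Akita they were 0.037 for Prdx2, 0.13 for Prdx4 and 0.12 for Prdx5. In WT + NACET vs WT they were −0.038 for Txn2, −0.031 for Txnrd1, −0.033 for Prdx2 and −0.20 for Prdx5. Between the treated groups they were 0.031 for Txnrd1 and 0.017 for Prdx5, in Akita + NACET vs WT −0.00046 for Txnrd1, and in the interaction 0.070 for Prdx2 and 0.32 for Prdx5. In Akita vs WT, Prdx2 was 0.0040 with DESeq2 size factors, 0.0075 with DESeq2, 0.023 with the block and 0.039 with both outlying libraries left out, Prdx6 was 0.059 with the block and 0.12 without the outlying libraries, and Prdx5 was 0.013 without them. Txnrd1 in Akita + NACET vs WT was −0.0012 with a mean count of at least 50. With 1 library left out, the ranges that crossed 0 were, in Akita vs WT, −0.064 to 0.039 for Prdx2, −0.070 to 0.013 for Prdx5, −0.13 to 0.13 for Prdx6 and −0.038 to 0.17 for Txnrd2. For Akita + NACET vs Akita they were −0.175 to 0.0027 for Prdx4 and −0.21 to 0.032 for Prdx6, and in WT + NACET vs WT −0.027 to 0.050 for Prdx5. Against WT, those of Akita + NACET were −0.065 to 0.113 for Prdx4, −0.18 to 0.059 for Prdx6, −0.049 to 0.036 for Txnrd1 and −0.152 to 0.058 for Txnrd2. Each gene had 119 counts or more per library. The parts of counting and of the spread between libraries in these values were not separated.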
